A study of Mus musculus with 6 samples.

Results

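The mitochondrial genome transcripts of mouse oocytes were taken as the rows of the deposited count table whose chromosome is MT. These were 37 of 54532 rows, made up of 13 mRNAs, 2 rRNAs and 22 tRNAs. RNA was sequenced in 3 libraries of oocytes from C57BL/6J mice given AMH and in 3 libraries of control oocytes from the same strain. AMH is anti-Müllerian hormone, a TGF-beta family ligand that granulosa cells of growing follicles secrete. Per the labels, the AMH was a recombinant mouse protein made in E. coli, given at 300 ng by daily intraperitoneal injection to mice that were 21 days old at the start. An age of 6 to 7 weeks is given for every library. Whether controls were injected, which stage and number of oocytes were pooled, and whether libraries come from different animals is not stated in the labels. The p-values therefore cover only the spread among the 6 libraries, and that spread may be technical. By its title, the study asks about AMH, oocyte quality and embryonic development, and AMH libraries are compared with controls here.

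Mitochondrial DNA is a small circle that is read from both strands into long precursors. Enzymes then cut out the tRNAs that lie between the longer genes, which frees the mRNAs and rRNAs, and most mRNAs receive a short poly(A) tail. The mRNAs encode core subunits of respiratory complexes I, III, IV and V, and the rRNAs and tRNAs serve the mitochondria's own ribosomes. All other parts of that machinery are made from nuclear genes. The oocyte is known for its large store of mitochondria, which the embryo inherits from it.

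The genes have no introns and lie nearly end to end, so their sequence shows what a count at a boundary can mean. Coordinates are those of GRCm38, and the sequences are from the GENCODE M21 transcripts. The reading frames of mt-Atp8 and mt-Atp6 overlap by 43 bases and those of mt-Nd4l and mt-Nd4 by 7 bases, all on the plus strand. These stretches are shown because a read that touches them overlaps both genes. How such reads were counted is not given in the sources used here, so their part in the counts of mt-Atp8 and mt-Nd4l is not known. The capitals mark the shared bases at the end of mt-Atp8 (MT:7910-7969) and at the end of mt-Nd4l (MT:10144-10173).
end of mt-Atp8: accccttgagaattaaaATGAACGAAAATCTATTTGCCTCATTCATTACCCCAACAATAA
end of mt-Nd4l: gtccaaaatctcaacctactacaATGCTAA

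A further 3 mRNAs, mt-Co3, mt-Nd4 and mt-Cytb, have lengths that leave a remainder of 1 base after whole codons. Their last bases are shown because the genome carries only the T of their stop codon, marked by the capital, and in mammals the poly(A) tail is known to complete it. These are the plus-strand ends at MT:9361-9390, MT:11515-11544 and MT:15259-15288.
mt-Co3 end: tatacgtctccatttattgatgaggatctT
mt-Nd4 end: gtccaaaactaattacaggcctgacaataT
mt-Cytb end: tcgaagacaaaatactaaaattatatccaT

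Count totals were 66392859 to 69395450 in AMH libraries and 69997949 to 72109080 in control libraries. AMH 3 and control 3 stood apart from their groups. The chi-square statistic per degree of freedom over genes was lowest between these libraries of opposite groups, at 55.9, ahead of 69.2 for AMH 1 with AMH 2 and 66.0 for control 1 with control 2. Oocyte markers were present in every library, with a summed level of 18098 to 30652 CPM in AMH and 31398 to 39914 CPM in control libraries, and only 1 of 22 had a higher mean in AMH. CPM is the gene count scaled by the TMM-adjusted library size. Cumulus and granulosa markers summed to 8255, 7403 and 6325 CPM in AMH 1, 2 and 3. In control 1, 2 and 3 they summed to 2392, 1290 and 6634 CPM, so control 3 lay above AMH 3. The mean was higher in AMH for 25 of 28. Blood, immune and endothelial markers summed to 232 to 501 CPM in AMH and 191 to 216 CPM in control libraries, with a higher mean in AMH for 11 of 14. Oviduct epithelium markers summed to 280.4 to 793 CPM in AMH and 263 to 312 CPM in control libraries, with a higher mean in AMH for 9 of 10. No marker was at 0 over all libraries.

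Mitochondrial rows held a small share of all counts, and the share was largest in AMH 1 and AMH 2. It was 0.207%, 0.275% and 0.124% in AMH 1, 2 and 3, against 0.12%, 0.114% and 0.0799% in control 1, 2 and 3. The 95% Wilson interval of AMH 3, 0.1234% to 0.125%, lay just above that of control 1, 0.1191% to 0.1207%, and such intervals cover counting error only. Of all mitochondrial counts, mRNAs held 84.2%, rRNAs 15.7% and tRNAs 0.168%. Per the labels' protocols, the RNA was selected with poly-T beads, so these are shares of captured RNA. How capture differed between the kinds was not measured. In bulk libraries, more RNA per oocyte and more cells of another type cannot be told apart. Cells other than oocytes also carry mitochondrial RNA, and the part of the marker differences given above in these shares was not tested.

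Summed over the 13 mRNAs, the level was 1470, 1994 and 1134 CPM in AMH 1, 2 and 3, against 1098, 1032 and 757 CPM in control 1, 2 and 3. The AMH libraries averaged 1533 ± 433 CPM and the controls 962 ± 181 CPM (SD, n = 3 each), a log2 ratio of 0.67. Every AMH library lay above every control, although AMH 3 exceeded control 1 by less than the spread within either group. The 2 rRNAs summed to 272 ± 139.9 CPM in AMH and 189.8 ± 87.2 CPM in control libraries, a log2 ratio of 0.52 with groups that overlapped. That ratio was 0.14 without AMH 2 and 0.18 without control 3, and for the mRNAs it was 0.44 without AMH 2 and 0.53 without control 3. The 22 tRNAs summed to 2.74 ± 0.242 CPM in AMH and 2.33 ± 0.62 CPM in control libraries, a log2 ratio of 0.23, also with overlap and at 0.03 without control 3 and -0.02 with upper-quartile scaling.

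**Figure D1:**
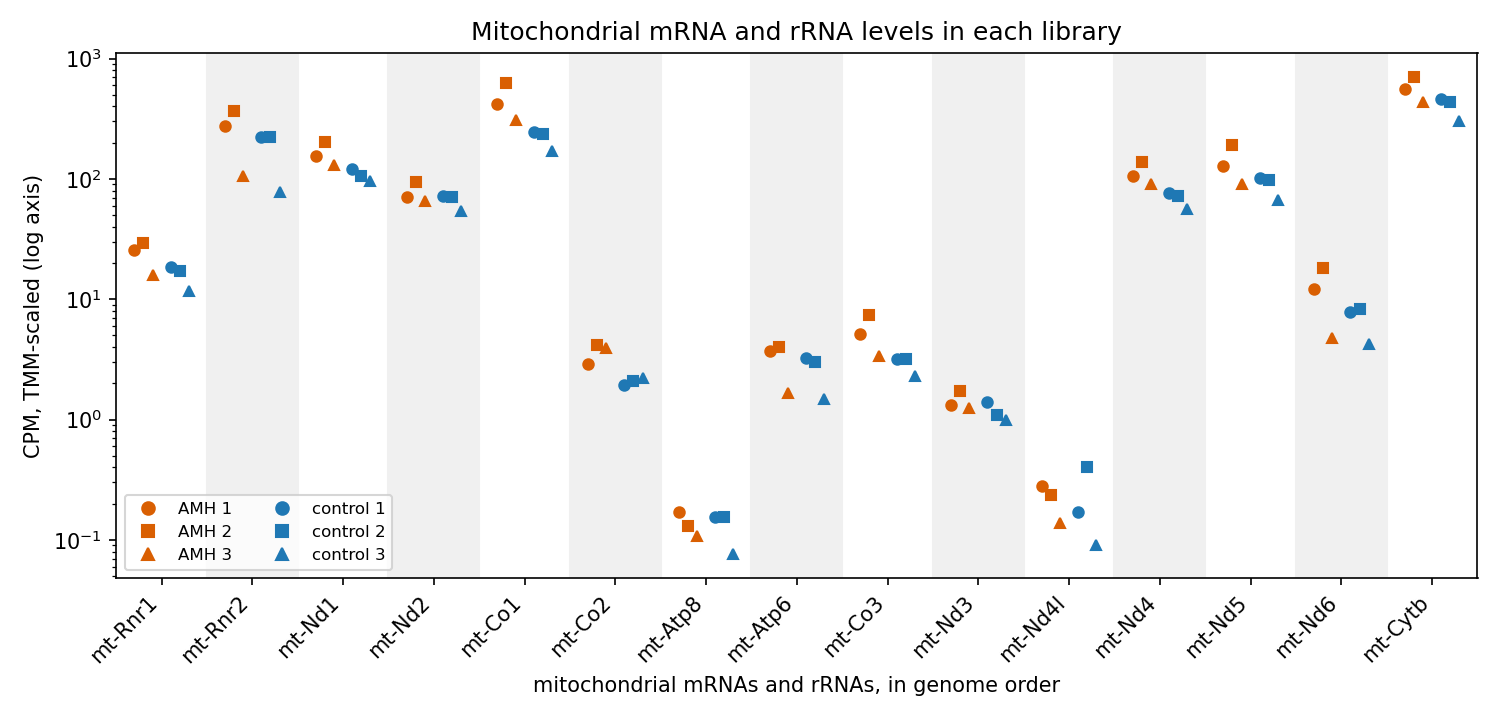
Levels of the 13 mitochondrial mRNAs and 2 rRNAs in CPM on a log axis, in genome order, with 1 point per library (AMH orange, control blue, marker shape by library number). AMH 2 was the highest library for most mRNAs, and levels run from mt-Cytb at 302 to 704 CPM down to mt-Atp8 at 0.0758 to 0.172 CPM.

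Of the 37 members, 32 had at least 1 count and 18 passed the filter on low counts: 12 mRNAs, 2 rRNAs and 4 tRNAs. No member passed edgeR's quasi-likelihood test at a Benjamini-Hochberg adjusted p of 0.05 over 18868 genes, and neither did any other gene (0% of genes called in either direction). At an unadjusted p under 0.05, 5 members were higher in AMH and 0 lower, where 20.2% of all tested genes were higher and 17.3% lower. DESeq2 called 2 members higher and 0 lower, where it called 16.3% of genes higher and 7.78% lower, and limma-voom called 0. The fold changes were positive for 15 of the 18 and negative for 3, with a median log2 fold change of 0.53, where the median of all tested genes was -0.01. Every AMH library lay above every control for 5 of the 18, all of them mRNAs, and below for 0. Over all tested genes, 26.9% had every AMH library above every control and 23.3% had every AMH library below. By kind, the median log2 fold change was 0.61 for the 12 tested mRNAs, 0.55 for the rRNAs and 0.17 for the tRNAs.

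Leaving out AMH 3 and control 3, the libraries that stood apart, 21 members passed the filter. Of these 21, edgeR called 7 higher in AMH and 0 lower, where 29.4% of all genes were called higher and 21.6% lower. The 7 were mt-Co1, mt-Nd4, mt-Nd1, mt-Rnr1, mt-Cytb, mt-Co3 and mt-Nd6, with adjusted p between 0.0205 and 0.0482 in edgeR. Their log2 fold changes in that fit ran from 0.52 for mt-Cytb to 1.16 for mt-Co1. Without AMH 3 alone, edgeR called only mt-Co1, where 1.45% of genes were called higher and 6.73% lower. Without control 3 alone, it called no member, where 26.8% of genes were called higher and 11.2% lower.

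The size of the fold changes depended on AMH 2, the highest library for most mRNAs. Without it, the median log2 fold change of the tested members was 0.30. No member was called, and neither was any other of the 19374 genes tested in that fit. The log2 fold change was then 0.40 for mt-Nd1, 0.29 for mt-Nd5, 0.30 for mt-Nd6, 0.14 for mt-Nd3, 0.04 for mt-Nd2 and 0.31 for mt-Cytb. It was 0.54 for mt-Co3, 0.04 for mt-Atp6, 0.38 for mt-Rnr1 and 0.11 for mt-Rnr2. Larger values remained for mt-Co1 at 0.74 and mt-Co2 at 0.70, and mt-Nd4 had 0.52. Without control 3, the median was 0.40, with 0.33 for mt-Cytb, 0.10 for mt-Nd2, 0.20 for mt-Nd3 and 0.15 for mt-Rnr2.

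**Figure D2:**
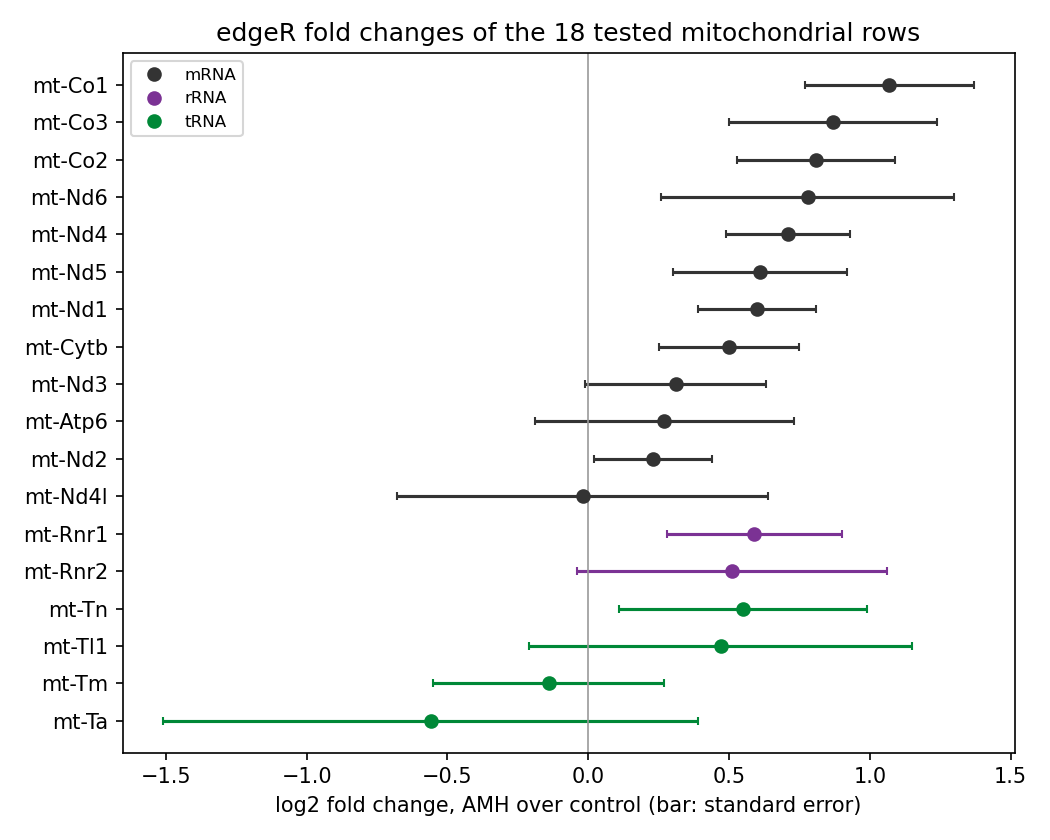
Log2 fold changes of AMH over control from edgeR for the 18 tested mitochondrial rows, with standard errors as bars and colour by kind of RNA. The mRNA values run from -0.02 for mt-Nd4l to 1.07 for mt-Co1, and none of the 18 passed the adjusted threshold.

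Complex IV, cytochrome c oxidase, passes electrons to oxygen, and its 3 mitochondrial subunits had the highest fold changes among the tested mRNAs in the edgeR fit with TMM scaling. That order was not fixed. mt-Nd6 followed at 0.78 ± 0.52 (SE), and scaled by library size alone it had 1.11, above 1.07 for mt-Co2. mt-Co1 (ENSMUSG00000064351, MT:5328-6872, plus strand) encodes the catalytic core of complex IV. Its level was 422, 628 and 307 CPM in AMH 1, 2 and 3, against 244, 234 and 170.4 CPM in control 1, 2 and 3. All AMH libraries were above all controls, AMH 2 was highest and control 3 lowest. The means were 452 ± 163 CPM in AMH and 216 ± 39.8 CPM in control libraries (SD, n = 3 each). edgeR gave a log2 fold change of 1.07 ± 0.30 (SE) with an unadjusted p of 0.00897 and an adjusted p of 0.116. DESeq2 gave 1.09 with an adjusted p of 0.0284. Without AMH 2 the log2 fold change was 0.74, with an edgeR adjusted p of 0.28.

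mt-Co2 (ENSMUSG00000064354, MT:7013-7696), which holds the site where cytochrome c hands over its electrons, was present at far lower counts. It had 2.88, 4.15 and 3.93 CPM in AMH 1, 2 and 3, against 1.95, 2.09 and 2.23 CPM in control 1, 2 and 3. The groups did not overlap, with an SD of 0.677 CPM in AMH and 0.138 CPM in control libraries (n = 3 each). Its log2 fold change was 0.81 ± 0.28 (SE), with an adjusted p of 0.118 in edgeR and of 0.0264 in DESeq2. mt-Co3 (ENSMUSG00000064358, MT:8607-9390), the third core subunit, had 5.16, 7.40 and 3.36 CPM in AMH 1, 2 and 3, against 3.18, 3.19 and 2.32 CPM in control 1, 2 and 3. AMH 3 exceeded control 2 only slightly, at 3.36 against 3.19 CPM, and the log2 fold change was 0.87 ± 0.37 (SE, edgeR adjusted p = 0.132).

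Complex I, NADH dehydrogenase, takes 7 of the 13 mRNAs. mt-Nd4 (ENSMUSG00000064363, MT:10167-11544), a proton-pumping membrane subunit, had 106, 138 and 91.2 CPM in AMH 1, 2 and 3, against 76.7, 72.2 and 56.0 CPM in control 1, 2 and 3. mt-Nd1 (ENSMUSG00000064341, MT:2751-3707), the membrane subunit next to the quinone site, had 155, 204 and 131 CPM in AMH 1, 2 and 3, against 121, 106 and 95.7 CPM in control 1, 2 and 3. For these genes the groups did not overlap, and AMH 2 was again the highest library. The log2 fold changes were 0.71 ± 0.22 for mt-Nd4 and 0.60 ± 0.21 for mt-Nd1 (SE), with edgeR adjusted p of 0.116 and 0.118.

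The other complex I mRNAs had groups that overlapped. mt-Nd5 (MT:11742-13565), another proton-pumping subunit, had 129, 189.6 and 90.1 CPM in AMH 1, 2 and 3, against 102, 97.8 and 67.2 CPM in control 1, 2 and 3. AMH 3 lay below control 1 and control 2 here, and the log2 fold change was 0.61 ± 0.31 (SE, edgeR adjusted p = 0.172). mt-Nd2 (MT:3914-4951), also a proton-pumping subunit, had 70.2, 94.0 and 65.1 CPM in AMH 1, 2 and 3, against 71.4, 70.4 and 54.0 CPM in control 1, 2 and 3. Only AMH 2 stood above the controls for mt-Nd2, whose log2 fold change of 0.23 ± 0.21 (SE, edgeR adjusted p = 0.402) was -0.01 with upper-quartile scaling. Upper-quartile scaling moved the median of all genes to -0.23, and scaling by library size alone moved it to 0.26.

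mt-Nd3 (MT:9459-9806) and mt-Nd4l (MT:9877-10173), small membrane subunits, were among the lowest mRNAs. mt-Nd3 had 1.32, 1.73 and 1.25 CPM in AMH 1, 2 and 3, against 1.40, 1.09 and 0.985 CPM in control 1, 2 and 3. mt-Nd4l had 0.283, 0.235 and 0.137 CPM in AMH 1, 2 and 3, against 0.171, 0.405 and 0.0910 CPM in control 1, 2 and 3, and rested on 93 counts in all. Both overlapped between groups, with edgeR adjusted p of 0.462 for mt-Nd3 and 0.986 for mt-Nd4l. mt-Nd6 (MT:13552-14070, minus strand) is the only mRNA encoded on the opposite strand to the rest, and its row overlaps mt-Nd5 by 14 bases. It had 12.1, 18.1 and 4.73 CPM in AMH 1, 2 and 3, against 7.78, 8.24 and 4.26 CPM in control 1, 2 and 3. The lowest values of both groups came from the libraries numbered 3, and the log2 fold change was 0.78 ± 0.52 (SE, edgeR adjusted p = 0.269). The strand setting of the counting is not given in the sources used here, so mt-Nd6 reads and antisense reads of its region cannot be told apart.

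Complex III, the cytochrome bc1 complex, has a single mitochondrial subunit, cytochrome b. mt-Cytb (ENSMUSG00000064370, MT:14145-15288) was the most abundant of the members by counts and per length. Its level was 563, 704 and 435 CPM in AMH 1, 2 and 3, against 465, 434 and 302 CPM in control 1, 2 and 3. AMH 3 lay level with control 2 and below control 1, so the groups overlapped, and the log2 fold change was 0.50 ± 0.25 (SE, edgeR adjusted p = 0.169). Complex V, the ATP synthase, has mt-Atp6 (MT:7927-8607), part of the proton channel, and mt-Atp8 (MT:7766-7969), a small subunit beside it. mt-Atp6 had 3.68, 3.98 and 1.65 CPM in AMH 1, 2 and 3, against 3.22, 3.01 and 1.49 CPM in control 1, 2 and 3. The libraries numbered 3 were low in both groups, and its log2 fold change of 0.27 ± 0.46 (SE, edgeR adjusted p = 0.650) was -0.01 without control 3. mt-Atp8 had 14, 10 and 7 counts in AMH 1, 2 and 3, against 10, 10 and 5 counts in control 1, 2 and 3. It was the only mRNA that did not pass the filter on low counts and was not tested.

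The 2 rRNAs, cores of the mitochondrial ribosome's subunits, behaved differently from library to library. mt-Rnr2 (ENSMUSG00000064339, MT:1094-2675), the large-subunit rRNA, had 273, 367 and 105 CPM in AMH 1, 2 and 3, against 222, 223 and 77.4 CPM in control 1, 2 and 3. mt-Rnr1 (MT:70-1024), the small-subunit rRNA, had 25.5, 29.6 and 15.9 CPM in AMH 1, 2 and 3, against 18.6, 17.0 and 11.7 CPM in control 1, 2 and 3. Both were lowest in the library numbered 3 of each group, so the groups overlapped. The log2 fold changes were 0.51 ± 0.55 for mt-Rnr2 and 0.59 ± 0.31 for mt-Rnr1 (SE), with edgeR adjusted p of 0.475 and 0.185. Set against the mRNAs of the same library, which removes the scaling, mt-Rnr2 gave 18.6, 18.4 and 9.27 counts per 100 mRNA counts in AMH 1, 2 and 3, against 20.2, 21.6 and 10.2 in control 1, 2 and 3. The split was between the libraries numbered 3 and the other libraries, not between the groups. mt-Rnr1 showed no such split, at 1.74, 1.49 and 1.40 counts per 100 mRNA counts in AMH 1, 2 and 3, against 1.70, 1.65 and 1.54 in control 1, 2 and 3. The labels give no batch, and the cause of the split was not tested.

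Most tRNAs had few counts. The floor of detection is 3 counts, or 0.037 to 0.0458 CPM in AMH and 0.0455 to 0.0467 CPM in control libraries, and mt-Tm with 40 to 70 and mt-Tn with 23 to 89 counts per library lay well above it. Per the labels' protocols, poly-T beads were used to select the RNA before fragmentation, and a mitochondrial tRNA row spans only 59 to 75 bases. Of 22 tRNAs, 5 were at 0 in every library (mt-Tf, mt-Tv, mt-Ts1, mt-Td and mt-Tk). A further 13 were detected with 1 to 71 counts in all and did not pass the filter, and 5 of those had fewer than 10 counts over the 6 libraries. The 4 tested tRNAs, with 59 to 327 counts in all, were mt-Tm, mt-Tn, mt-Ta and mt-Tl1.

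The methionine tRNA mt-Tm (plus strand) and the asparagine tRNA mt-Tn (minus strand) were the most counted tRNAs, and their sequences are shown because they hold most of the tRNA counts. mt-Tm joins mt-Nd2 with no base between, and the capitals mark the first bases of mt-Nd2 after it (MT:3845-3925). mt-Tn is shown whole (MT:5089-5159), with no capitals.
mt-Tm into mt-Nd2: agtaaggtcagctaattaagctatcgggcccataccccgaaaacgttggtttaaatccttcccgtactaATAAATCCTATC
mt-Tn: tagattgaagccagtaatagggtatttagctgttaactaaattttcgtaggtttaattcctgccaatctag

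mt-Tm had 0.493, 0.719 and 1.07 CPM in AMH 1, 2 and 3, against 0.915, 0.935 and 0.652 CPM in control 1, 2 and 3. mt-Tn had 1.10, 0.929 and 0.595 CPM in AMH 1, 2 and 3, against 0.713, 0.732 and 0.349 CPM in control 1, 2 and 3. The groups overlapped for both, and AMH 3 was the highest library for mt-Tm but the lowest AMH library for mt-Tn. The log2 fold changes were -0.14 ± 0.41 for mt-Tm and 0.55 ± 0.44 for mt-Tn (SE), with edgeR adjusted p of 0.800 and 0.349. The alanine tRNA mt-Ta had 19, 8 and 5 counts in AMH 1, 2 and 3, against 21, 18 and 1 counts in control 1, 2 and 3. The leucine tRNA mt-Tl1 had 10, 10 and 16 counts in AMH 1, 2 and 3, against 3, 13 and 7 counts in control 1, 2 and 3. These counts overlap between the groups, and the edgeR adjusted p was 0.647 for mt-Ta and 0.586 for mt-Tl1. Among untested tRNAs, mt-Te had 7 counts over the AMH libraries and 0 over the controls, with 1 to 4 counts in each AMH library, and mt-Tl2 had 11 counts over the AMH libraries and 4 over the controls.

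Levels can be compared between genes only per length, for which the deposited FPKM (counts per kilobase, scaled by an effective library size) was used. Capture by the poly-T beads may also differ between genes, mt-Nd6 and the rRNAs included, and was not measured. mt-Cytb averaged 483 ± 125 FPKM in AMH and 336 ± 75.8 FPKM in control libraries (SD, n = 3 each). mt-Co1 averaged 286 ± 108 FPKM in AMH and 134 ± 26.1 FPKM in control libraries. mt-Nd1 averaged 166 ± 41.0 FPKM in AMH and 108 ± 14.2 FPKM in control libraries. These 3 were the highest mRNAs in both groups, in the same order. Below them, mt-Nd4 averaged 79.1 ± 18.4 FPKM, mt-Nd5 72.8 ± 28.1 FPKM and mt-Nd2 71.7 ± 15.7 FPKM in AMH libraries, against 47.6 ± 8.12 FPKM for mt-Nd4, 46.8 ± 10.4 FPKM for mt-Nd5 and 60.3 ± 9.67 FPKM for mt-Nd2 in control libraries. These neighbours in the order did not differ beyond their spread in AMH libraries, and mt-Nd2 stood first of them in controls. At the other end, mt-Co3, mt-Co2, mt-Atp6, mt-Nd3, mt-Nd4l and mt-Atp8 all averaged between 0.653 and 6.61 FPKM in AMH and between 0.607 and 3.63 FPKM in control libraries. mt-Co3 and mt-Cytb lie on the same strand, and their levels differed by far more than the spread between libraries.

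The share of each mRNA within the mitochondrial mRNA counts of a library does not depend on scaling. The share of mt-Co1 was 28.7%, 31.5% and 27.1% in AMH 1, 2 and 3, against 22.2%, 22.6% and 22.5% in control 1, 2 and 3. Every AMH library was above every control, and counting error was at most 0.366 percentage points (the half-width of the 95% Wilson interval). The share of mt-Cytb was 38.3%, 35.3% and 38.3% in AMH 1, 2 and 3, against 42.3%, 42.1% and 39.9% in control 1, 2 and 3. That of mt-Nd2 was 4.77%, 4.72% and 5.74% in AMH 1, 2 and 3, against 6.50%, 6.81% and 7.13% in control 1, 2 and 3. Both shares were lower in every AMH library than in any control. For the other 10 mRNAs the shares overlapped between groups. By CPM, 26.9% of all tested genes had every AMH library above every control and 23.3% had every AMH library below. The shares themselves were not tested. Shares sum to a fixed total, so a higher share of mt-Co1 lowers the others, and these are shares of counts, not levels. As a ratio, mt-Co1 had 0.75, 0.892 and 0.706 counts per mt-Cytb count in AMH 1, 2 and 3, against 0.525, 0.538 and 0.564 in control 1, 2 and 3. mt-Nd2 had 0.454, 0.462 and 0.498 counts per mt-Nd1 count in AMH 1, 2 and 3, against 0.588, 0.665 and 0.564 in control 1, 2 and 3. The ratios did not overlap between the groups, also within the libraries numbered 3. They were chosen after the values were seen and have no test, and with 3 against 3 libraries an exact permutation test could not go below 0.1. The part of the marker differences given above in these shares was not tested.

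**Figure D3:**
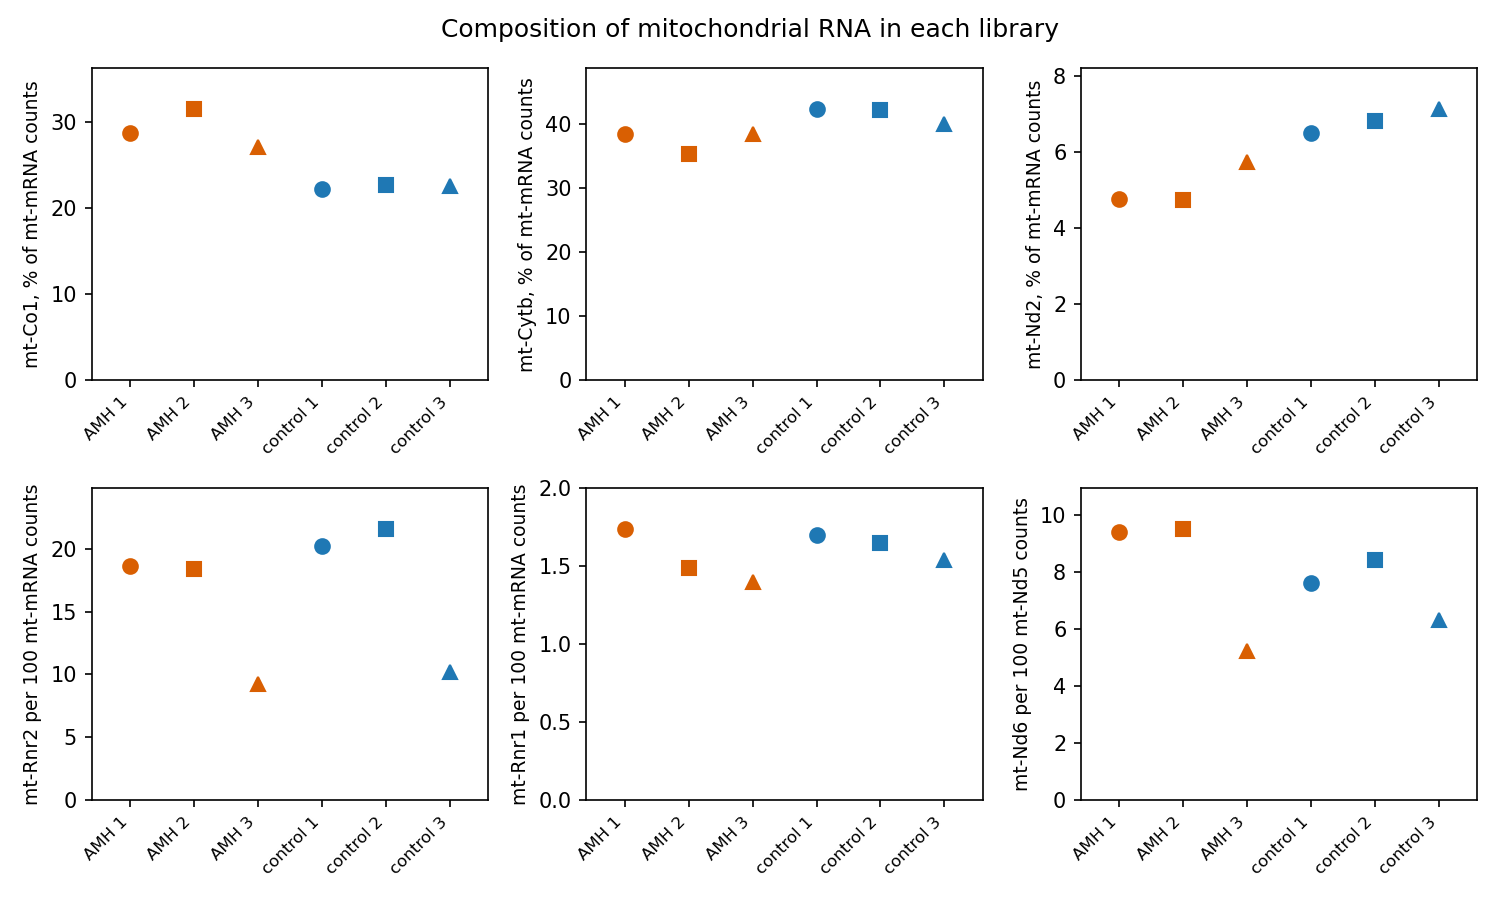
Composition of mitochondrial RNA in each library: the shares of mt-Co1, mt-Cytb and mt-Nd2 in mitochondrial mRNA counts (top), and mt-Rnr2 and mt-Rnr1 per 100 mRNA counts and mt-Nd6 per 100 mt-Nd5 counts (bottom), all from 0. The top panels show the only mRNAs of 13 whose shares did not overlap between groups. In the bottom panels, mt-Rnr2 and mt-Nd6 are lowest in AMH 3 and control 3.

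Of the mRNAs at the low end of the order, 5 of 6 are those whose sequence is repeated nearly whole in annotated nuclear rows. Mouse chromosome 1 carries a nuclear insert of mitochondrial DNA, which the count table holds as 7 pseudogene rows on the minus strand between 24611535 and 24616197 (4663 bases). It corresponds to MT:6381-11042 (4662 bases), from the last part of mt-Co1 to the middle of mt-Nd4. Aligned to their mitochondrial genes, 5 of the 7 rows have 0 differences over their whole length: Gm28661 for mt-Co2 (681 bases), Gm10925 for mt-Atp6 (678), Gm28437 for mt-Co3 (783), Gm10222 for mt-Nd4l (294) and Gm28439 for the first part of mt-Nd4 (876). Gm28438 has 1 difference over 345 bases from mt-Nd3. Gm29216 has 6 over 492 bases from mt-Co1, and its last 479 bases are identical. The stretches with differences are shown because they hold every base by which these rows can be told from the mitochondrial genes. Capitals mark the differing bases, and positions count from 1 at the start of each mitochondrial gene. The substitution in mt-Nd3 is T3C, and those in mt-Co1 are T1056A, C1057T, A1059G, A1060G, C1062A and A1066T. The mitochondrial stretches are MT:6381-6432 and MT:9459-9498 on the plus strand, and those of the copies are chr1:24616146-24616197 and chr1:24613080-24613119 on the minus strand.
mt-Co1: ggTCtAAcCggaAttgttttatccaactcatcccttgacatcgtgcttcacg
Gm29216: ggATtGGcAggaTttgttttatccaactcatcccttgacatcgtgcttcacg
mt-Nd3: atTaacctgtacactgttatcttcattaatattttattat
Gm28438: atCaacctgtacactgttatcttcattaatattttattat

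The mRNAs were grouped by how much of their sequence they share. Sharing was measured as the percent of 100-base windows of a gene found exactly in another annotated transcript. It was 99.5% for mt-Co2, 99.5% for mt-Atp6, 99.9% for mt-Co3, 97.6% for mt-Nd3 and 98.5% for mt-Nd4l. These 5 held 4833 counts, 0.906% of mitochondrial mRNA counts, with means of 0.72 to 6.61 FPKM in AMH and 0.719 to 3.63 FPKM in control libraries. mt-Nd4 shared 60.8% of its windows and mt-Co1 30.8%, and they averaged 79.1 to 286 FPKM in AMH and 47.6 to 134 FPKM in control libraries. The 5 mRNAs outside the insert, mt-Nd1, mt-Nd2, mt-Nd5, mt-Nd6 and mt-Cytb, shared at most 3.19% of windows. They averaged 22.0 to 483 FPKM in AMH and 12.5 to 336 FPKM in control libraries, above all 5 nearly fully shared mRNAs. mt-Atp8 could not be placed in this order. None of its windows occurs in another annotated transcript, and its level was as low as that of mt-Nd4l. It lies inside the mitochondrial span of the insert. Its first part lies between mt-Co2 and mt-Atp6, a stretch of 230 bases, and its last 43 bases lie inside mt-Atp6. On chromosome 1, the 233 bases between Gm10925 and Gm28661 hold none of the pseudogene rows, and their sequence was not compared. Gm28661 matches only the first 681 of the 684 bases of mt-Co2, so the 230 and 233 bases are not bounded at the same place. How reads that match both places were treated is not given in the sources used here, so the levels of the shared mRNAs are uncertain, and their place in the order was not tested against that treatment. Of 5 tRNAs inside the span 3 were at 0 and the highest had 17 counts in all, while of 17 outside it 2 were at 0 and the highest had 327 counts. Also outside it, mt-Ts2, mt-Ti, mt-Te and mt-Th had only 1, 5, 7 and 7 counts in all. No tRNA shared a 50-base window with another annotated transcript, and unannotated copies of tRNAs were not searched.

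**Figure D4:**
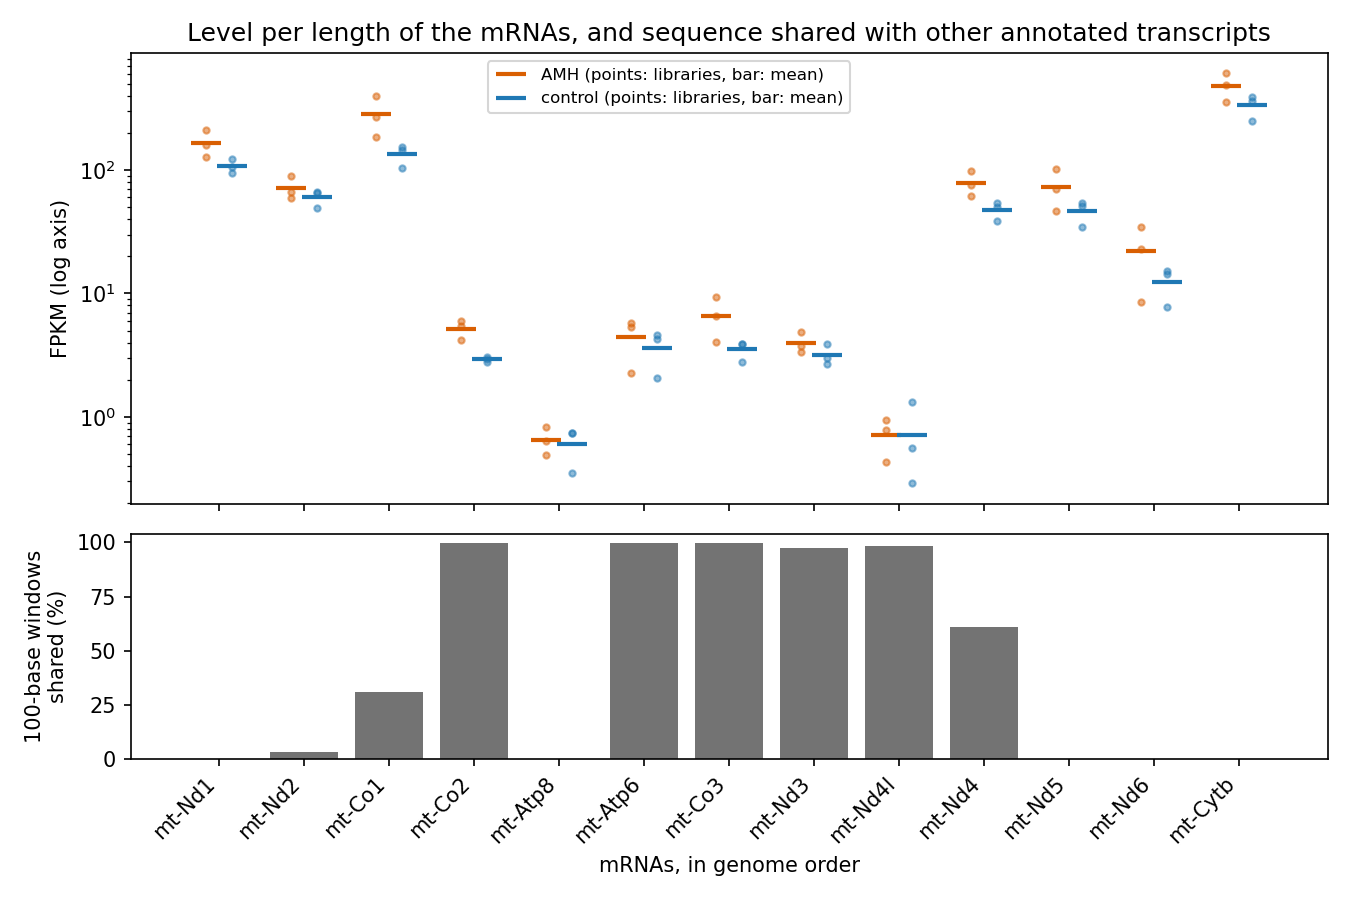
Level per length of the 13 mitochondrial mRNAs in genome order (top, FPKM on a log axis, points are libraries and bars are group means) above the percent of their 100-base windows found in another annotated transcript (bottom). The 5 mRNAs with 97.6% to 99.9% shared windows, and mt-Atp8, averaged between 0.653 and 6.61 FPKM in AMH libraries, and the 5 with at most 3.19% averaged 22.0 to 483 FPKM.

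The copy rows took very different shares of the counts. Gm28437, Gm10925 and Gm28661 had 1211, 1190 and 813 counts in all, beside 1768 for mt-Co3, 1210 for mt-Atp6 and 1216 for mt-Co2. Gm10222 had 24 beside 93 for mt-Nd4l, Gm28438 26 beside 546 for mt-Nd3, Gm28439 88 beside 38457 for mt-Nd4 and Gm29216 467 beside 144409 for mt-Co1. The split by library is given for the 3 pairs with identical sequence and at least 813 counts on each row. Of the counts on mt-Co2 and Gm28661 together, the copy held 33.7%, 29.7% and 53.2% in AMH 1, 2 and 3, against 32.3%, 30.9% and 50% in control 1, 2 and 3. The 95% Wilson intervals of the libraries numbered 3, 49.0% to 57.3% in AMH 3 and 44.3% to 55.7% in control 3, did not meet those of the other libraries. Gm10925 held 49.8%, 46.3% and 61.6% of the counts on itself and mt-Atp6 in AMH 1, 2 and 3, against 46.4%, 46.5% and 52.9% in control 1, 2 and 3. There, only AMH 3 (55.8% to 67.1%) had an interval clear of the other AMH libraries. Gm28437 held 39.1%, 48.3% and 38.9% of the counts on itself and mt-Co3 in AMH 1, 2 and 3, against 33.2%, 33.0% and 31.7% in control 1, 2 and 3. AMH 2 was highest there, and its interval of 45.3% to 51.2% lay above those of the other libraries. With no base that differs between these pairs, the counts do not say which genome a read came from.

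**Figure D5:**
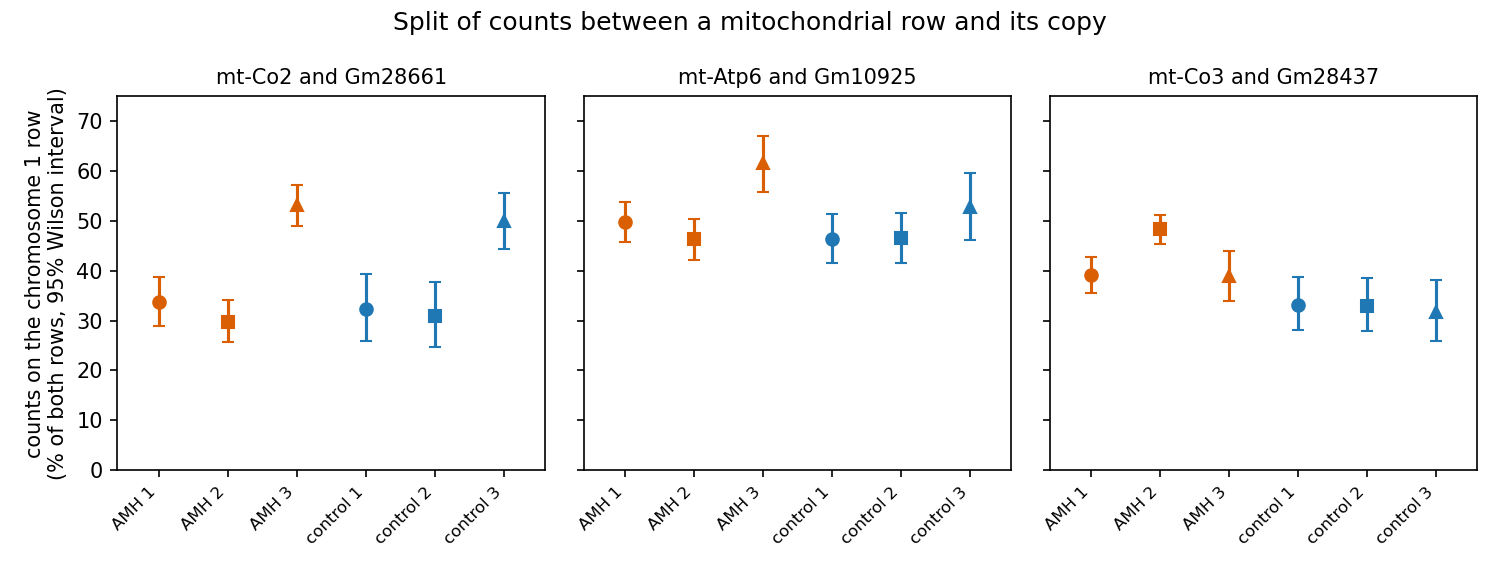
Percent of the counts on a mitochondrial mRNA and its chromosome 1 copy that lie on the copy, for 3 pairs of identical sequence, with 95% Wilson intervals for each library. For mt-Co2 the libraries numbered 3 stand at 50% to 53.2% and the others at 29.7% to 33.7%, in both groups.

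With the copy counts added to the mitochondrial row, the log2 fold change was 0.85 for mt-Co2, 1.13 for mt-Co3 and 0.36 for mt-Atp6, with edgeR adjusted p of 0.131, 0.118 and 0.447. Taken alone, Gm28437 had 269, 528 and 140 counts in AMH 1, 2 and 3, against 102, 101 and 71 counts in control 1, 2 and 3. Its log2 fold change of 1.55 ± 0.49 (SE) was above that of mt-Co3, with an edgeR adjusted p of 0.116. Gm29216 had a log2 fold change of 1.13 ± 0.47 (SE, edgeR adjusted p = 0.129), beside 1.07 for mt-Co1. Gm29216 held at most 0.418% of the counts on itself and mt-Co1 in any library, so adding it left the value of mt-Co1 at 1.07.

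Mitochondrial transcripts are made, matured and translated by nuclear-encoded proteins, whose mRNAs were measured in the same libraries. None of 161 tested members of 9 lists of such genes passed edgeR's adjusted threshold, and 91 were called higher and 2 lower by DESeq2, which called 16.3% of all genes higher and 7.78% lower. At an unadjusted edgeR p under 0.05, 98 were higher and 10 lower, where 20.2% of all genes were higher and 17.3% lower. In the list for mtDNA replication and transcription, 6 of 18 tested members had every AMH library above every control and 4 had every AMH library below, with a median log2 fold change of 0.34. These are 33.3% and 22.2% of the list, near the 26.9% and 23.3% of all tested genes. Tfam, which packages mtDNA and starts its transcription, averaged 12.2 ± 1.76 CPM in AMH and 4.87 ± 1.72 CPM in control libraries (SD, n = 3 each; log2 fold change 1.33, edgeR adjusted p = 0.116). Ssbp1, the single-strand binding protein of mtDNA replication, averaged 18.4 ± 1.79 CPM in AMH and 7.92 ± 2.86 CPM in control libraries, a log2 fold change of 1.22. Polrmt, the mitochondrial RNA polymerase, had 37.5, 34.9 and 29.0 CPM in AMH 1, 2 and 3, against 11.3, 12.8 and 28.1 CPM in control 1, 2 and 3. Control 3 nearly reached AMH 3, and the log2 fold change was 0.96 with an edgeR adjusted p of 0.124. Polg, the mtDNA polymerase, had 52.7, 49.7 and 35.3 CPM in AMH 1, 2 and 3, against 18.9, 19.0 and 37.9 CPM in control 1, 2 and 3, so its groups overlapped.

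Of 31 genes of mitochondrial RNA processing and stability, 10 had every AMH library above every control and 8 had every AMH library below, with a median log2 fold change of -0.06. These are 32.3% and 25.8% of the list, also near the shares of all genes. Lrpprc and Slirp form a complex that keeps mitochondrial mRNAs stable. Lrpprc averaged 25.8 ± 6.09 CPM in AMH and 16.1 ± 1.67 CPM in control libraries (SD, n = 3 each; log2 fold change 0.69, edgeR adjusted p = 0.118). Slirp averaged 1.18 ± 0.0907 CPM in AMH and 0.385 ± 0.155 CPM in control libraries, a log2 fold change of 1.61. Trmu, which modifies mitochondrial tRNAs, averaged 8.33 ± 0.917 CPM in AMH and 3.01 ± 0.951 CPM in control libraries, a log2 fold change of 1.47. Mtpap, the poly(A) polymerase of mitochondrial mRNAs, was among the 8 genes of this list that were below. It had 54.1, 63.5 and 90.4 CPM in AMH 1, 2 and 3, against 107, 106 and 90.7 CPM in control 1, 2 and 3. All AMH libraries lay below all controls, though AMH 3 and control 3 were nearly equal (log2 fold change -0.55, edgeR adjusted p = 0.127). Of 14 tested translation factors, 6 (42.9%) were above and 3 (21.4%) below in every AMH library, with a median log2 fold change of 0.32. They included Mrpl58, a rescue factor of stalled mitochondrial ribosomes, at 15 ± 4.11 CPM in AMH and 5.99 ± 2.19 CPM in control libraries. Mtrf1l, a release factor, averaged 3.67 ± 1.19 CPM in AMH and 1.57 ± 0.312 CPM in control libraries. Of 20 mitochondrial aminoacyl-tRNA synthetases, 15 (75%) were above and 0 below, with a median log2 fold change of 1.04. Ears2, which charges the glutamate tRNA, averaged 10.4 ± 1.75 CPM in AMH and 3.71 ± 1.73 CPM in control libraries, and Cars2, which charges the cysteine tRNA, 6.15 ± 1.29 CPM in AMH and 2.20 ± 0.627 CPM in control libraries.

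The nuclear subunits that join the mitochondrial ones in each complex had higher median fold changes than the mitochondrial mRNAs. Where 26.9% of all tested genes had every AMH library above every control, the same held for 33 of 37 nuclear complex I genes, 8 of 9 of complex III, 10 of 11 of complex IV and 16 of 17 tested genes of complex V. The median log2 fold changes were 1.30, 1.49, 0.84 and 1.35 in these 4 lists, beside 0.61 for the mitochondrial mRNAs. For complex IV alone, mt-Co1, mt-Co2 and mt-Co3 had 1.07, 0.81 and 0.87, so the nuclear median of 0.84 lay among them. Complex II, which has no mitochondrially encoded subunit, had 3 of 4 above and a median of 0.80. Examples were Ndufs6 of complex I, at 21.5 ± 2.26 CPM in AMH and 6.81 ± 2.18 CPM in control libraries, and Uqcr11 of complex III, at 51.2 ± 4.85 CPM in AMH and 18.8 ± 5.32 CPM in control libraries. Cox6b1 of complex IV averaged 78.7 ± 14.7 CPM in AMH and 27.9 ± 8.82 CPM in control libraries, and Atp5j2 of complex V 32.8 ± 2.99 CPM in AMH and 10.9 ± 3.47 CPM in control libraries. Each had an edgeR adjusted p of 0.116. The cumulus and granulosa markers moved the same way, except that control 3 lay above AMH 3. Their part in these values was not tested.

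Within each library, the ratio of mitochondrial to nuclear subunits per length gave no common direction. mt-Cytb had 0.98, 1.40 and 0.985 FPKM per FPKM of summed nuclear complex III genes in AMH 1, 2 and 3, against 1.68, 2.09 and 0.915 in control 1, 2 and 3. The summed mt-Nd1, mt-Nd2, mt-Nd5 and mt-Nd6 had 0.306, 0.472 and 0.31 FPKM per FPKM of nuclear complex I genes in AMH 1, 2 and 3, against 0.616, 0.765 and 0.365 in control 1, 2 and 3. Control 3 lay below the AMH libraries in the ratio for complex III and among them in that for complex I. mt-Co1 had 0.308, 0.489 and 0.262 FPKM per FPKM of nuclear complex IV genes in AMH 1, 2 and 3, against 0.296, 0.333 and 0.207 in control 1, 2 and 3, with the groups overlapping. Adding the log2 summed cumulus and granulosa markers as a covariate gave a median log2 fold change of 0.93 over the 18 tested mitochondrial rows. None was called, and mt-Co1 had a log2 fold change of 1.33 (edgeR adjusted p = 0.657). These markers summed to 6325 to 8255 CPM in AMH libraries. They were at 2392 and 1290 CPM in control 1 and 2, and at 6634 CPM in control 3, above AMH 3. Apart from control 3, they follow the group. In so few libraries, the fit cannot separate marker level from treatment.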

How the data were processed

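Poly-T selected RNA of 3 AMH and 3 control oocyte libraries was analysed. The authors deposited gene counts, as whole numbers, and FPKM values for each library. The submitters' processing notes list featureCounts 1.5.0-p3, HISAT2 2.0.5 and DESeq2 1.20.0, with GRCm38 and mm10 as builds. What each tool did, the strand setting and the treatment of reads with several matches were not given in the sources used here. Each deposited FPKM value equalled the count per gene length and per effective library size, which was 1.05 to 1.18 of the count total in AMH and 0.924 to 0.997 in control libraries.

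The members were all rows on MT. They and the gene lists were chosen with earlier results of these data known. Counts were tested with edgeR 4.0.16 in R 4.3.3 (quasi-likelihood, robust, TMM, default filterByExpr, group alone, Benjamini-Hochberg at 0.05 over 18868 genes). Fold changes are AMH over control. Every mRNA and rRNA, tested tRNAs, and per nuclear list the 2 members of smallest p plus Polrmt, Tfam, Polg, Lrpprc, Slirp and Mtpap were eligible to be named. Shared sequence was found by exact windows and alignment (Biopython 1.88) in GENCODE M21 transcripts. Alternatives were DESeq2 1.42.0, limma-voom (limma 3.58.1), other scalings and filters, limma on log2(FPKM + 1) and log2(FPKM + 0.1) of the deposited FPKM (genes over 1 FPKM in 3 or more libraries), a cumulus marker covariate, a replicate block and leaving out libraries. Adding the copy counts was chosen after seeing the data. The tests were tested on simulated data.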

Additional observations from a re-analysis of the deposited data

How the results depend on the processing

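None of the 18 tested mitochondrial rows changed sign past a threshold in 385 alternative fold changes from 22 alternatives, and 375 stayed uncalled. The other 10 passed the threshold, all positive. DESeq2 called 2 members higher, 3067 genes higher and 1468 lower, and 91 members of the nuclear lists higher and 2 lower. Without AMH 3 and control 3 together, edgeR called 7 of 21 tested members higher, 5693 genes higher and 4192 lower, and 107 nuclear list members higher and 18 lower. Leaving out each library in turn gave 0 to 1 members called higher, 0 to 5291 genes higher and 0 to 2222 lower, and 0 to 103 nuclear list members higher and 0 to 7 lower. Those calls came only without AMH 3 (1 member, 285 genes higher, 1322 lower) or without control 3 (0 members, 5291 genes higher, 2222 lower). All other alternatives called 0 members and 0 genes. Scaling to summed oocyte markers, which moved the median of all genes to 0.74, gave log2 ratios of 1.5, 1.45 and 1.04 for summed mRNAs, rRNAs and tRNAs, against 0.67, 0.52 and 0.23. By FPKM, which divides each count by gene length, mt-Cytb made up 42.3% of the mRNA total, against 39.4% of counts. The cause of the differences in calls between the alternatives was not tested. With the replicate block, 0 members and 0 genes were called and mt-Co1 had a log2 fold change of 1.02. The block gave 0.49 ± 0.21 (SE) for mt-Rnr2 and 0.64 ± 0.36 for mt-Nd6, beside 0.51 ± 0.55 and 0.78 ± 0.52 without it. For mt-Co2 the error was larger with the block, at 0.79 ± 0.37 beside 0.81 ± 0.28. Over all tested genes, same-numbered libraries deviated with correlations of 0.0596, -0.103 and -0.25, so the numbers are not treated as pairs. Members that follow the number, such as mt-Rnr2, depart from that. For mt-Co1 the log2 fold change ran from 0.74 without AMH 2 to 1.91 with oocyte marker scaling, with adjusted p from 0.0205 to 0.657. Depth limits mt-Nd4l, mt-Atp8 and the tRNAs, which rest on at most 327 counts each.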

Other observations

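A few other rows of the count table resemble mitochondrial DNA and lie outside the chromosome 1 insert. On chromosome 2, Gm13339, which shares sequence with mt-Nd2, had 15, 14 and 6 counts in AMH 1, 2 and 3, against 11, 9 and 4 counts in control 1, 2 and 3. Gm13340, which shares windows with mt-Co1, had 10, 8 and 7 counts in AMH 1, 2 and 3, against 3, 3 and 4 counts in control 1, 2 and 3. Gm13341, which shares windows with mt-Co2, had 5, 3 and 4 counts in AMH 1, 2 and 3, against 0, 2 and 2 counts in control 1, 2 and 3. The groups do not overlap for Gm13340 and Gm13341, at counts too low for the filter, and neither was tested. Gm4076 had 1 count in all, and Gm11407, Gm20594 and Gm11512 were at 0. These rows were named after their values were seen.

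Ratios between neighbouring genes varied among libraries of the same group. mt-Atp6 had 71.4, 53.7 and 49.1 counts per 100 mt-Co3 counts in AMH 1, 2 and 3, against 101, 94.1 and 64.1 in control 1, 2 and 3. mt-Tm had 0.702, 0.765 and 1.64 counts per 100 mt-Nd2 counts in AMH 1, 2 and 3, against 1.28, 1.33 and 1.21 in control 1, 2 and 3.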
